A study of Mus musculus with 12 samples.

Results

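The Schlafen genes were followed across bone marrow-derived macrophages (BMDM) of HSS9 knockout (KO) and wild-type (WT) mice, with and without lipopolysaccharide (LPS). HSS9, also named TNF-9, is an enhancer of the cytokine gene Tnf, and the KO mice carried its deletion on both alleles. The 7 genes were taken by symbol (Slfn1, Slfn2, Slfn3, Slfn4, Slfn5, Slfn8 and Slfn9), matched from the gene identifiers of the count table without their version to the GENCODE annotation of GRCm38. They are 7 of 48526 genes in the table, and all 7 were among the 15523 genes with enough reads to be tested. The symbols were chosen by gene name, with the measured levels of these libraries in the 4 groups in view, and which comparison entered that choice is not recorded. The counts of members and the p-values of the members below therefore describe these libraries and are not independent evidence about the family.

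Total RNA was sequenced from 12 libraries in 4 groups of 3, namely WT without LPS (WT UT), KO without LPS (KO UT), WT with LPS (WT LPS) and KO with LPS (KO LPS). The UT cells are labelled as given PBS, and both treatments lasted 6 hr. All cells were grown from femur and tibia marrow for 6 d in medium with 20% L929-conditioned medium, a source of macrophage growth factor, and the study used male mice aged 7 to 10 weeks. The labels call the WT mice littermates, whereas the methods describe bought C57BL/6 mice and KO mice bred as homozygous pairs, so genotype and breeding history cannot be told apart. The labels do not say whether the 3 libraries of a group came from separate mice, and p-values measure the spread between these libraries only.

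Library totals ranged from 26154533 to 36423921 counts. Tnf, the target of the enhancer, was lower in KO both with LPS (log2 fold change -1.04, edgeR adjusted p 2.76e-10) and without it (-0.66, edgeR adjusted p 1.29e-06). The defining markers of macrophages summed to 28763 to 29823 CPM in WT UT, 33241 to 34323 in KO UT, 26404 to 27849 in WT LPS and 28428 to 30170 in KO LPS (CPM is the count relative to the library size, with library sizes scaled by TMM), with 8 of 8 markers detected. None of the 8 was called between KO UT and WT UT by edgeR or DESeq2, and at an edgeR adjusted p below 0.05 with any fold change 6 were higher in KO UT and 1 lower, against 14.1% and 9.69% of all tested genes. At an unadjusted p below 0.05 there were 7, against 34.3%, and 1.82% of all tested genes were called. Between KO LPS and WT LPS none of the 8 was called by edgeR or DESeq2, where edgeR called 1.25% of all tested genes. At an edgeR adjusted p below 0.05 with any fold change 5 were higher in KO LPS and 0 lower, against 7.78% and 6.54%. Neutrophil markers summed to 18.6 to 19.9 CPM in WT UT, 40.7 to 46.2 in KO UT, 50.4 to 79.4 in WT LPS and 67.2 to 76.7 in KO LPS, with Ly6g, 1 of the 7 markers, at or under 3 counts. Of 5 tested, 4 were called higher in KO UT than in WT UT, with a median log2 fold change of 1.21, and 3 had a response to LPS called smaller in KO, against 1.02% and 1.64% of all tested genes. The 1.64% stands for 254 genes, which became from 137 without WT LPS replicate 3 to 408 without WT LPS replicate 1. DESeq2 called 3 and 1 of the 5, against 251 and 330 of 15523 tested genes in either direction. T cell markers summed to at most 9.42 CPM in any library, with Cd3e, Cd3g and Trac at or under 3 counts. The lists for B cells, NK cells, dendritic cells and stromal cells reached at most 8.12 CPM. Between KO LPS and WT LPS, DESeq2 called 1 of 2 tested T cell markers and 1 of 4 tested dendritic cell markers. It called 211 of 15523 tested genes there, while edgeR called 0 in these 2 lists. Stromal markers summed to 1.93 to 4.06 CPM in WT LPS and 6.76 to 8.12 in KO LPS, and 4 of 4 tested were called higher in KO LPS by edgeR and by DESeq2, against 0.586% of all tested genes by edgeR. Protein-coding genes took 90.1 to 90.6% of counts in WT UT, 86.3 to 87.6% in KO UT, 86.9 to 90% in WT LPS and 91.4 to 91.6% in KO LPS. The part of these differences in the values below was not tested, other than by a fit to protein-coding genes only. In bulk RNA, fewer cells that express a gene and less RNA of that gene per cell cannot be told apart.

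Schlafen genes encode a family of proteins of mammals with a shared core, many of which are induced by type I interferon. The mouse family is usually split into a short group (Slfn1 and Slfn2), an intermediate group (Slfn3 and Slfn4) and a long group (Slfn5, Slfn8, Slfn9 and Slfn14), and the long proteins add a helicase-like part. Slfn1 was named for its restraint of thymocyte growth, Slfn2 is known for keeping T cells and monocytes quiescent and resistant to infection, and Slfn4 is a myeloid gene linked to macrophage differentiation. LPS acts on macrophages through TLR4, which leads to type I interferon production and, through the receptor Ifnar1, to transcription factors such as Stat2 and Irf9.

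The 7 genes lie in a single cluster on chromosome 11 of GRCm38, from 82951349 to 83215154, a span of 264 kb. Slfn5 (82951349 to 82964840), Slfn2 (83065112 to 83070678), Slfn1 (83116849 to 83122670), Slfn4 (83175186 to 83190216) and Slfn3 (83191330 to 83215154) are on the plus strand, and Slfn9 (82978390 to 82991830) and Slfn8 (83002158 to 83020810) on the minus strand. All 7 are annotated as protein coding. The deletion upstream of Tnf is on another chromosome.

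RefSeq start sites on GRCm38.p6 were found for 7 of 7 members, in 8 windows of 300 bases (250 before to 50 after each start). Each window was searched on both strands for the core of the interferon-stimulated response element, GAAANNGAAA, where N is any base. Slfn5, Slfn8 and Slfn9 held a match, against 3.44% of 32851 windows of the same length. In Slfn8 and Slfn9 the match was the same 10 letters on the opposite strand, at -48 to -39 and -45 to -36 from the start, and these 2 windows shared 82.6% of 298 aligned positions. Slfn8 has another RefSeq start, from which this match lies at -136 to -127. The Slfn5 match, at -155 to -146, is followed by a run of A. The Slfn9 window and the Slfn8 window that aligns with it are shown, with the match in capitals (Slfn8, chr11:83020761-83021060, minus strand, and Slfn9, chr11:82991781-82992080, minus strand).
Slfn8: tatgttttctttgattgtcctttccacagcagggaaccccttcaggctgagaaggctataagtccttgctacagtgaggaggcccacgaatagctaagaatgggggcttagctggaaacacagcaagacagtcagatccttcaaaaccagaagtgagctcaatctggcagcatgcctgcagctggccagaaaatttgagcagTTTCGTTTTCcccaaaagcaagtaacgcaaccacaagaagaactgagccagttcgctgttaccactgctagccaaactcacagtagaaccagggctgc
Slfn9: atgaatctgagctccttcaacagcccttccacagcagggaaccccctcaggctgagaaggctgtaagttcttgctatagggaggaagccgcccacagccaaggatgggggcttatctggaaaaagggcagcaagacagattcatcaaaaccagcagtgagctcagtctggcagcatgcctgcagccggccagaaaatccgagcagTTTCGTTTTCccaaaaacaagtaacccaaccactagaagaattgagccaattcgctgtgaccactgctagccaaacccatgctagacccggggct
The other 4 members, Slfn1, Slfn2, Slfn3 and Slfn4, had no match to GAAANNGAAA in this window, and they shared a different word. ACTTCCTGG, the longest word common to their 4 windows and so chosen after the windows had been read, stood on the same strand as the gene at -74 to -66 in Slfn1, -55 to -47 in Slfn2, -42 to -34 in Slfn3 and -73 to -65 in Slfn4, and was found in 0.843% of all windows. It contains the reverse complement of the ETS core GGAAGT, so a match to that core in these 4 members was fixed by the choice of the word. The core alone was in 23.8% of windows and in no other member. The windows of the 2 members with the largest responses to LPS are shown with this word in capitals (Slfn4, chr11:83174936-83175235, plus strand, and Slfn1, chr11:83116570-83116869, plus strand).
Slfn4: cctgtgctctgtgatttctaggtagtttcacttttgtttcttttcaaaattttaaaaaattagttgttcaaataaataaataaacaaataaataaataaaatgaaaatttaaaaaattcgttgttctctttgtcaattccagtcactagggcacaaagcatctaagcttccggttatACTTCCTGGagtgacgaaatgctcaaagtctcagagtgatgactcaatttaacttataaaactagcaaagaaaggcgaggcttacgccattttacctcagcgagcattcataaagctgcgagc
Slfn1: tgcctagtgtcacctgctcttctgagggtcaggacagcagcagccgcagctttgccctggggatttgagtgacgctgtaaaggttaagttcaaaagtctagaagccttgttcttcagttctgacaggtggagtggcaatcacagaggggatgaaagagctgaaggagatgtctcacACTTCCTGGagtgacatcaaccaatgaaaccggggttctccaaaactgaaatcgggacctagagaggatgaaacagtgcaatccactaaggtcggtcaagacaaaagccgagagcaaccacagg
The interferon-gamma activated site TTCNNNGAA, present in 8.3% of windows, matched 0 of the 7 members, and the kB consensus by name, present in 5.8%, matched Slfn1 and Slfn9. A match describes letters only and is not a binding site shown by these data.

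Levels before stimulation spread widely over the family. Values between genes are given as CPM per kb of annotated exon, since the genes differ in length. In WT UT the order was Slfn2 (250 ± 1.37, SD, n = 3), Slfn5 (61.7 ± 0.646), Slfn8 (38.9 ± 0.656), Slfn4 (4.95 ± 0.0555), Slfn9 (4.47 ± 0.261), Slfn1 (4.15 ± 0.572) and Slfn3 (4.01 ± 0.481). The ranges of Slfn9 and Slfn1, and those of Slfn1 and Slfn3, overlapped, and every other pair of neighbours in this order was apart. Slfn2 thus stood highest and 4 members shared a low level. In WT LPS the order was Slfn2 (1511 ± 57.9), Slfn4 (593 ± 19.5), Slfn8 (284 ± 23.7), Slfn5 (265 ± 31.2), Slfn1 (60.9 ± 2.42), Slfn9 (25.6 ± 4.19) and Slfn3 (12.6 ± 1.55), where only Slfn8 and Slfn5 overlapped. Slfn4 moved from the low group to the place after Slfn2, and Slfn1 rose clear of Slfn9 and Slfn3.

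**Figure D1:**
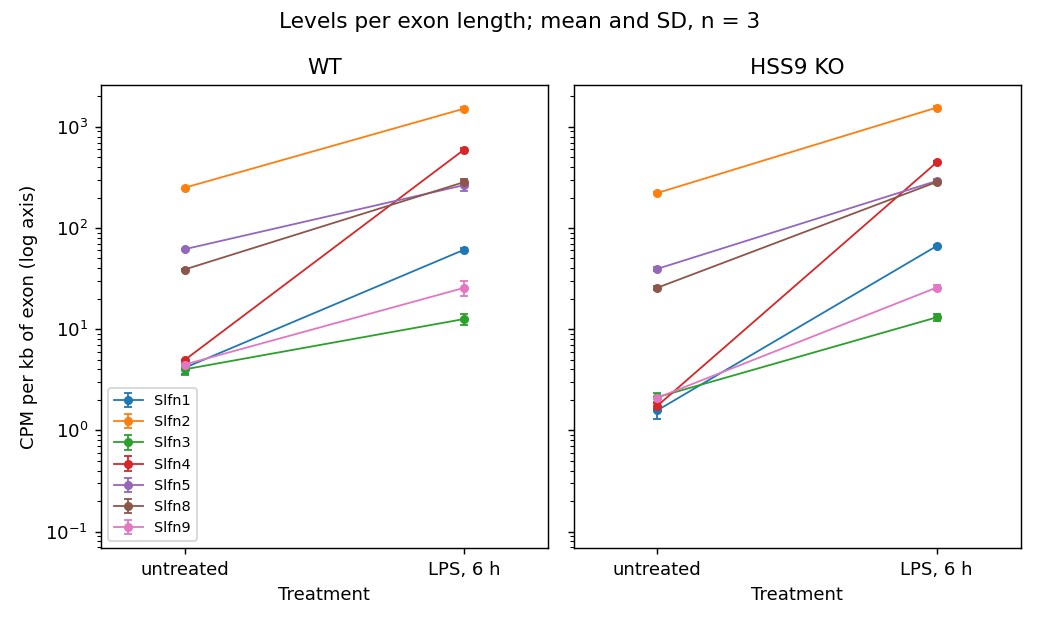
Level of each Schlafen gene in CPM per kb of annotated exon (log axis) without LPS and after LPS for 6 hr, in WT (left) and HSS9 KO (right). Points are means of 3 libraries and error bars are SD. Slfn2 is highest in all 4 groups, and Slfn4 climbs to 593 in WT (4.95 without LPS) and to 445 in KO (1.75 without LPS).

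In KO UT the same 3 genes led, Slfn2 at 222 ± 5.69, Slfn5 at 39.5 ± 1.58 and Slfn8 at 25.7 ± 1.28 CPM per kb, followed by Slfn3 (2.13 ± 0.204), Slfn9 (2.1 ± 0.018), Slfn4 (1.75 ± 0.108) and Slfn1 (1.58 ± 0.29). Slfn3 and Slfn9 overlapped, as did Slfn4 and Slfn1. In KO LPS the order was Slfn2 (1549 ± 57.6), Slfn4 (445 ± 13.2), Slfn5 (292 ± 13), Slfn8 (285 ± 15.5), Slfn1 (66.4 ± 0.823), Slfn9 (25.8 ± 1.55) and Slfn3 (13.1 ± 0.942), with overlap between Slfn5 and Slfn8 only. Summed over the 7 members, the family had 1033 ± 9.51 CPM in WT UT and 754 ± 21.6 in KO UT, and 8014 ± 255 in WT LPS and 7677 ± 46.8 in KO LPS. Of this sum, Slfn4 made up 1.9 ± 0.018% in WT UT and 0.918 ± 0.0408% in KO UT, and 29.4 ± 1.88% in WT LPS and 23 ± 0.665% in KO LPS.

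The response to LPS was read first, in each genotype. A call here means an adjusted p below 0.05 in edgeR together with a log2 fold change beyond 1 in size. All 7 members were called higher after LPS in WT, where 19.1% of all tested genes were, and all 7 in KO, where 17.7% of tested genes were. Their median log2 fold change was 2.60 in WT and 3.47 in KO, against 0.05 and -0.06 over all tested genes. For every member in both genotypes the 3 LPS libraries were above the 3 UT libraries, which held for 38.5% of tested genes in WT and 36.6% in KO.

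Slfn4 changed most. It stood at 19.5, 19.5 and 19.9 CPM in the WT UT libraries and at 2265, 2366 and 2417 CPM in the WT LPS libraries, a 120-fold rise (log2 fold change 6.90, SE 0.0639, edgeR adjusted p 6.58e-26). In KO it stood at 7.17, 6.43 and 7.18 CPM without LPS and at 1821, 1746 and 1720 CPM with it, a 254-fold rise (log2 fold change 7.99, SE 0.0689, edgeR adjusted p 2.34e-26). Slfn1 came next, with 8.77, 6.64 and 7.78 CPM in WT UT and 114.1, 117.8 and 108.8 CPM in WT LPS (14.7-fold, log2 fold change 3.88, SE 0.0878). In KO, Slfn1 went from 2.89, 2.44 and 3.52 CPM to 122.3, 123.6 and 125.3 CPM (41.6-fold, log2 fold change 5.38, SE 0.101). The 2 genes of the short group thus differed, since Slfn2 had the higher level and the smaller rise. Slfn2 was at 413.8, 418.4 and 415.7 CPM in WT UT and 2468, 2625 and 2450 CPM in WT LPS (6.04-fold), and at 374.8, 358.3 and 374.5 CPM in KO UT and 2590, 2665 and 2475 CPM in KO LPS (6.98-fold).

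Of the long group, Slfn5, Slfn8 and Slfn9 rose in WT by 4.3-fold to 7.31-fold. Slfn8 was at 155.9, 160.6 and 160.5 CPM in WT UT and 1269, 1137 and 1081 CPM in WT LPS, a 7.31-fold rise, and Slfn5 was at 386.3, 390.7 and 394.5 CPM and then at 1895, 1633 and 1509 CPM, a 4.3-fold rise. Slfn9 was at 24.9, 27.2 and 27.8 CPM and then at 181.4, 141.7 and 135.3 CPM, a 5.74-fold rise. In these 3 genes WT LPS replicate 1 was the highest of its group. In KO, Slfn8 went from 104.3, 100.5 and 110.9 CPM to 1156, 1111 and 1236 CPM (11.1-fold), and Slfn5 from 241.8, 247.5 and 261.2 CPM to 1820, 1782 and 1940 CPM (7.38-fold). Slfn9 in KO went from 12.5, 12.6 and 12.4 CPM to 150.1, 147.7 and 164.7 CPM (12.3-fold). Here KO LPS replicate 3 was the highest of its group for all 3 genes. Slfn3, an intermediate gene like Slfn4, rose least, from 13, 15.6 and 12.5 CPM to 48.7, 42.1 and 38.2 CPM in WT (3.15-fold) and from 6.53, 7.37 and 7.92 CPM to 41.3, 47.5 and 45.7 CPM in KO (6.15-fold).

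**Figure D2:**
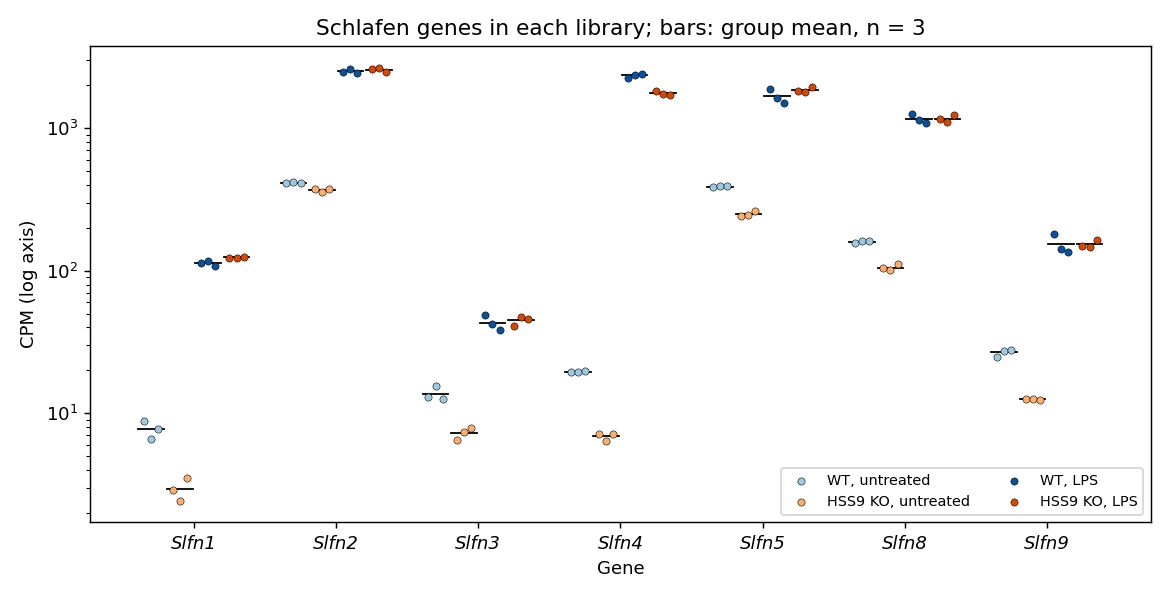
CPM of each Schlafen gene in every library (log axis), with 3 points a group for WT UT, HSS9 KO UT, WT LPS and HSS9 KO LPS and a bar at the group mean. Without LPS all KO points lie below all WT points for every gene, and with LPS this holds for Slfn4 alone.

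The next question was whether the HSS9 deletion moved the family in unstimulated cells. Without LPS, 3 of 7 members were called lower in KO, where 0.799% of tested genes were: Slfn4 by a log2 fold change of -1.50 (SE 0.0611, edgeR adjusted p 1.68e-12), Slfn1 by -1.38 (SE 0.115, edgeR adjusted p 2.62e-08) and Slfn9 by -1.09 (SE 0.0942, edgeR adjusted p 4.67e-08). These correspond to levels 2.83-fold, 2.6-fold and 2.13-fold lower. With no minimum fold change, 7 of 7 were lower at an edgeR adjusted p below 0.05, where 9.69% of tested genes were. This background depends on the scaling, with 1504 genes lower and 2196 higher under TMM, 2745 and 1724 under RLE scaling and 2856 and 1745 with DESeq2, where the median of all genes was -0.07. All 7 members were lower below 0.05 under each of these, and the same number, 3, were called. For 7 of 7 members the highest KO library was below the lowest WT library, as in 19.1% of tested genes. The median log2 fold change of the members was -0.91, against 0.00 over all tested genes.

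The other members differed less. Slfn3 had a log2 fold change of -0.91 (SE 0.108, edgeR adjusted p 3.02e-06), Slfn5 of -0.64 (SE 0.0651, 4.24e-07) and Slfn8 of -0.60 (SE 0.0616, 5.48e-07). Slfn2, the most abundant member, differed by -0.17 (95% interval -0.27 to -0.07, edgeR adjusted p 0.00994), and without KO UT replicate 2 its adjusted p was 0.0676. The size of the difference therefore varied within each protein group, from -0.17 in Slfn2 to -1.38 in Slfn1 in the short group, and from -0.60 in Slfn8 to -1.09 in Slfn9 in the long group. Slfn1 had the fewest reads, with 301 to 375 counts in WT UT and 83 to 139 in KO UT, and the widest interval, from -1.62 to -1.14.

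After LPS the genotypes lay closer. None of the 7 members was called by edgeR or by DESeq2, where 1.25% of tested genes were called by edgeR, and 2 members had an unadjusted edgeR p below 0.05, where 28.5% of tested genes did. Slfn4 was at 2349 ± 77.3 CPM in WT LPS and 1762 ± 52.2 in KO LPS (SD, n = 3), with no overlap between the libraries (14.9% of tested genes were lower without overlap), and had a log2 fold change of -0.41 (95% interval -0.52 to -0.31, SE 0.0486, edgeR adjusted p 8.00e-06). Without a minimum fold change this was the single member below 0.05, where 14.3% of tested genes were. That share stands for 2223 genes, which with 1 library left out became from 1405 (without KO LPS replicate 3) to 3228 (without WT LPS replicate 1). The member closest after Slfn4 was Slfn5 at 0.14 (interval 0.00 to 0.27, edgeR adjusted p 0.163), which without WT LPS replicate 1 became 0.23 (adjusted p 0.00104). That replicate and WT LPS replicate 3 were the least alike pair within any group over all genes. Slfn1 was higher in all 3 KO LPS libraries, as were 14.1% of tested genes, by 0.12 (interval -0.03 to 0.28, adjusted p 0.286).

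For the remaining members the interval of the difference after LPS ran from -0.06 to 0.13 in Slfn2, -0.14 to 0.25 in Slfn3, -0.12 to 0.13 in Slfn8 and -0.16 to 0.18 in Slfn9, all on the log2 scale. Their libraries overlapped between the genotypes. The sign of the difference changed in Slfn2 with protein-coding genes only, in Slfn3 with 1 library left out, and in Slfn8 and Slfn9 with upper-quartile scaling, with protein-coding genes only and with 1 library left out, so no direction is given for them. The median over the 7 members was 0.04, against -0.01 over all tested genes.

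Whether the LPS response itself differed between genotypes was tested as the difference of the 2 log2 fold changes (KO response minus WT response). It was above 0 at an edgeR adjusted p below 0.05 in 7 of 7 members, where 7.32% of tested genes were, and 3 members passed the fold change threshold as well, where 0.522% of tested genes did. The genes above 0 numbered 1136 under TMM (1475 below), 1982 under RLE scaling (1138 below) and 2182 with DESeq2 (1233 below), where the median of all genes was 0.07, and all 7 members passed under each. With 1 library left out these genes numbered from 785 (without WT LPS replicate 2) to 1984 (without WT LPS replicate 1), and 6 or 7 members passed. The 3 called members were Slfn1 (1.50, SE 0.137, edgeR adjusted p 3.83e-07), Slfn9 (1.10, SE 0.125, 6.71e-06) and Slfn4 (1.08, SE 0.0782, 1.67e-08). Slfn3 followed at 0.97 (SE 0.142), and was also called with RLE scaling (1.05) and DESeq2 (1.05) and with any of 5 single libraries left out. Next came Slfn5 at 0.78 (SE 0.0915) and Slfn8 at 0.60 (SE 0.0861). In Slfn2 the difference was 0.21 (SE 0.0664, adjusted p 0.036). It did not pass in 10 of the alternative settings, among them the batch number as a replicate block (adjusted p 0.0689). The larger response in KO ran from a lower start to a level that overlapped WT in 5 members, lay below it in Slfn4 and lay above it in Slfn1 without passing the test.

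**Figure D3:**
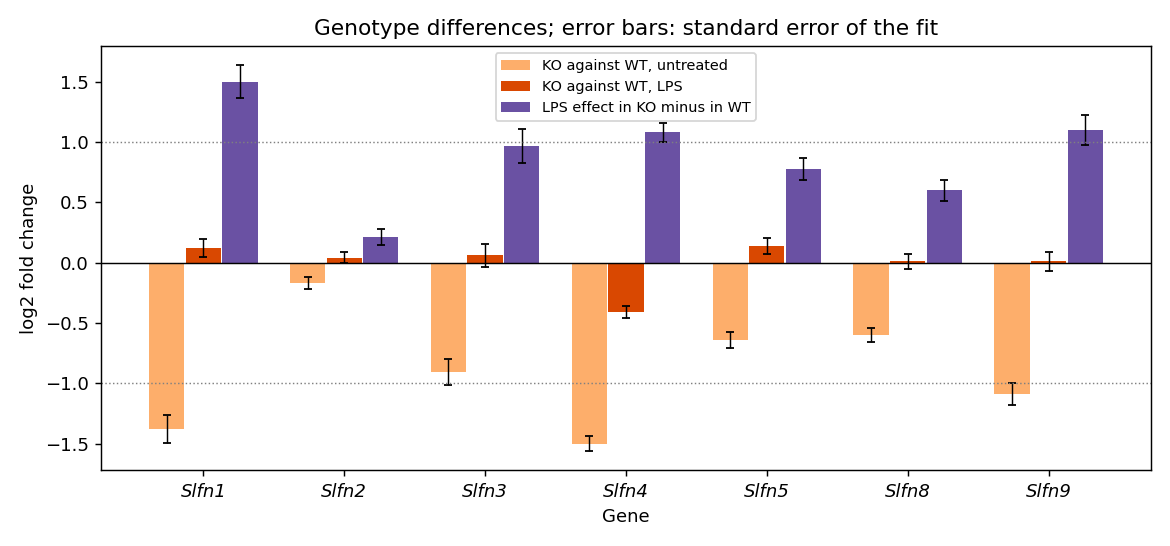
Log2 fold change of KO against WT without LPS and with LPS, and the LPS response in KO minus that in WT, for each Schlafen gene. Error bars are the standard error of the edgeR fit and dotted lines mark 1 and -1. All 7 untreated bars are negative, from -0.17 to -1.50, the LPS bars lie between -0.41 and 0.14, and the response difference reaches 1.50 in Slfn1.

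Tnf moved in another way. It had 14.8, 15 and 16.2 CPM in WT UT and 9.51, 10.5 and 9.1 in KO UT, and 826.3, 904.8 and 938.1 in WT LPS and 421.8, 449.5 and 424.8 in KO LPS. Its response to LPS was smaller in KO (difference -0.38, SE 0.0947, edgeR adjusted p 0.00763), whereas that of every Schlafen member was larger.

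Other genes with a Slfn symbol were few. Slfn10-ps, a transcribed pseudogene between Slfn8 and Slfn2 (83028130 to 83040042, minus strand), was at 38.5 ± 1.29 CPM in WT UT, 28.7 ± 2.19 in KO UT, 73.3 ± 4.86 in WT LPS and 68.2 ± 1.77 in KO LPS (SD, n = 3). It differed between genotypes without LPS (log2 fold change -0.42, edgeR adjusted p 5.65e-05) and did not pass with LPS (-0.11, interval -0.24 to 0.03, adjusted p 0.3). With LPS its KO libraries all lay below its WT libraries, as in 14.9% of tested genes. Its LPS response was 1.25 in KO, which was called, and 0.93 in WT, which was not. The difference of these responses was 0.32 (edgeR adjusted p 0.0206). Slfn14, known from platelets and red cell precursors, had at most 2 counts in any library. Slfnl1, a Schlafen-like gene on chromosome 4, had at most 14 counts, and Slfn5os, antisense to Slfn5, at most 11. Slfn5os overlaps 8.84% of the exon bases of Slfn5, and since no source used here says whether the counting used strand, reads of that overlap cannot be assigned to either gene, although Slfn5 itself had at least 8361 counts in every library.

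Reads shared between members bear on these values, because the treatment of reads with several matches is not stated. Of the 100-base words in the transcripts, 0% in Slfn1, 0.128% in Slfn2, 0.271% in Slfn4, 2.92% in Slfn3, 3.38% in Slfn8 and 3.71% in Slfn9 also occurred in another gene, and 6.4% in Slfn5, mostly in Slfn5os. For words of 50 bases the shares rose to 16% in Slfn3, shared with Slfn4 among others, 14.6% in Slfn8, shared with Slfn10-ps and Slfn9, 11.9% in Slfn9, 11.3% in Slfn4, 11.1% in Slfn5, 4.27% in Slfn2 and 0.606% in Slfn1. The values are uncertain by reads that fall in these shared stretches, and at both word lengths Slfn1 and Slfn2 had the smallest shares.

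Genes around the cluster were compared next. Within 500 kb of it lie 48 other genes, of which 27 were tested. Without LPS 0 of the 27 were called between genotypes by edgeR, where 1.82% of all tested genes were, and at any fold change 3 were higher and 2 lower in KO, against 14.1% and 9.69% of all tested genes, with a median log2 fold change of -0.00. The 2 lower ones were the chemokine gene Ccl5 (-0.40) and Ap2b1 (-0.25), and the 3 higher ones were Wfdc17 (0.73), Ccl4 (0.30) and Ccl9 (0.19). With LPS 0 were called, 2 were higher and 3 lower, against 1.25%, 7.78% and 6.54% of all tested genes, and the median was -0.05. DESeq2 called 0 of the 27 in either treatment, and 7 had an unadjusted edgeR p below 0.05 in each, where 34.3% of all tested genes did without LPS and 28.5% with LPS.

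Many of these neighbours responded to LPS. In WT 14 of 27 were called higher, from Mmp28 at a log2 fold change of 1.13 to Heatr9 at 8.35, and Gm11423 was called lower (-1.34), against 19.1% of all tested genes called higher and 18.7% lower. They included the chemokine genes Ccl5 (7.83), Ccl4 (7.41), Ccl3 (7.18) and Ccl9 (2.92), which attract leukocytes, with Wfdc18 (4.27), Wfdc17 (3.32) and Rffl (2.44). The rest were Mir7679 (4.44), which lies within Slfn9 on the same strand and had at most 25 counts, so that its reads cannot be told apart from unspliced Slfn9 RNA, Gm23444 (1.84), E230016K23Rik (1.79), Gm11427 (1.65) and AI662270 (1.29). In KO 13 were called higher and 1 lower, against 17.7% and 19.3% of all tested genes.

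**Figure D4:**
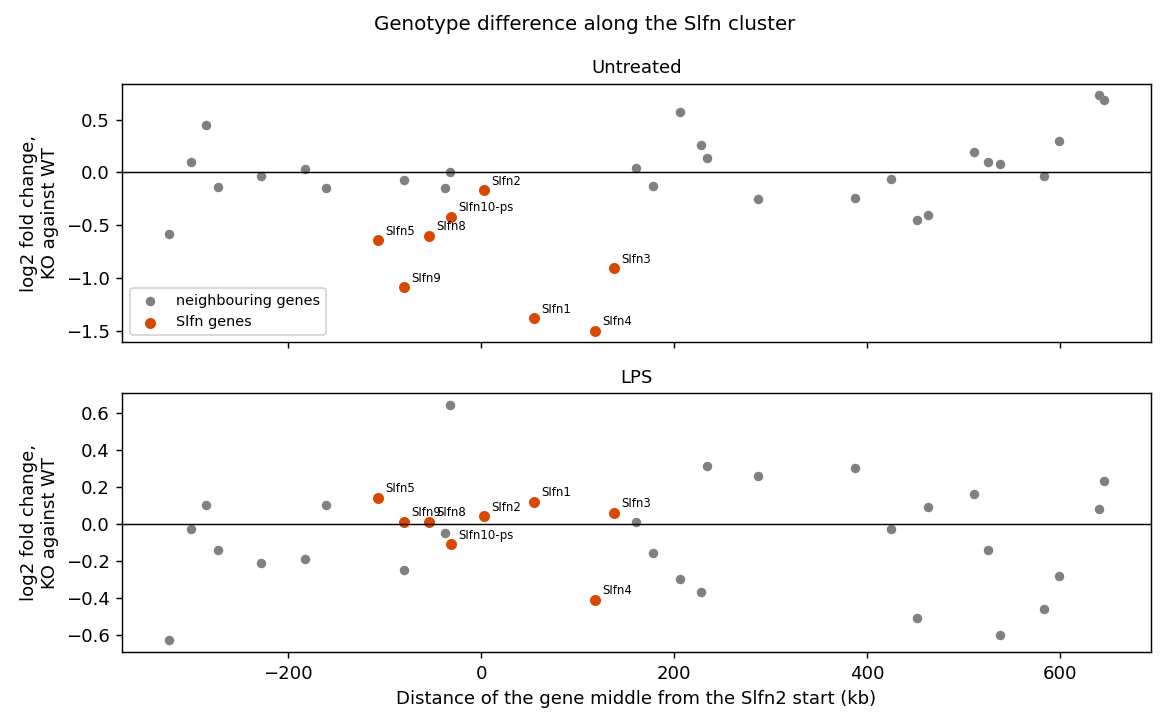
Log2 fold change of KO against WT for the tested Slfn genes (orange) and their tested neighbours (grey) by distance of the middle of the gene from the start of Slfn2 in kb, without LPS (top) and with LPS (bottom). Without LPS the Slfn genes lie between -1.50 and -0.17, and with LPS all but Slfn4 lie between -0.11 and 0.14.

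The Schlafen genes were then set beside a list of 20 interferon-stimulated genes, which are textbook targets of interferons and were chosen with results of these data known. Without LPS 19 of 20 were lower in KO at an edgeR adjusted p below 0.05 and 0 higher, where 9.69% of all tested genes were lower, with a median log2 fold change of -0.73 for the list. Past the fold change threshold 2 were called lower, Ifi44 (-1.61, adjusted p 1.68e-12) and Oasl1 (-1.15, adjusted p 2.86e-11), the latter an oligoadenylate synthetase-like gene, while DESeq2 called 3, these and Ifit2 (-1.06). By edgeR Ifit2, which restrains translation of foreign RNA, had -0.99, Rsad2, the antiviral viperin, -0.89, and Mx1, an antiviral GTPase, -0.81. The list and the Schlafen members therefore had medians of like size, -0.73 and -0.91.

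After LPS, 20 of 20 were called higher in each genotype, where 19.1% of all tested genes were in WT and 17.7% in KO, with log2 fold changes in WT from 1.59 to 8.22. The largest in WT were Cxcl10, a chemokine (8.22, and 8.54 in KO), Gbp2, a GTPase that acts on intracellular bacteria (6.12), Rsad2 (6.01, and 6.76 in KO) and Mx1 (5.52, and 6.23 in KO). Slfn4, at 6.90 and 7.99, was thus within the range of this list in both genotypes. Between genotypes after LPS 4 of 20 were lower at an adjusted p below 0.05, where 6.54% of all tested genes were, and the median was -0.09. By edgeR 0 of the 20 were called, 0 by DESeq2, and 9 of the 20 had an unadjusted edgeR p below 0.05, against 1.25% of all tested genes called and 28.5% at that unadjusted p. The 4 were Isg15, a ubiquitin-like protein (-0.49, adjusted p 3.59e-06), Mx2 (-0.25, adjusted p 0.00221), Ifi44 (-0.26, adjusted p 0.00713) and Cxcl10 (-0.23, adjusted p 0.0171). The LPS response was larger in KO for 19 of 20 at an adjusted p below 0.05, and 3 passed the fold change threshold, Ifi44 (1.34), Ifit2 (1.05) and Oasl1 (1.00), against 7.32% and 0.522% of all tested genes.

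Genes of interferon signalling were more mixed between genotypes, although 10 of 16 tested were called higher with LPS in each genotype, against 19.1% of all tested genes in WT and 17.7% in KO. DESeq2 called 10 in WT and 12 in KO in either direction, where it called 5874 and 5756 of all 15523 tested genes. The list was led in WT by the signalling inhibitors Socs3 (7.24) and Socs1 (6.37). Of 18 listed, 16 were tested, and without LPS 6 were lower and 2 higher in KO at an adjusted p below 0.05, against 9.69% and 14.1% of all tested genes. Irf7, a transcription factor that amplifies interferon production, was the single call, at 162 ± 2.08 CPM in WT UT and 70 ± 0.622 in KO UT (SD, n = 3; log2 fold change -1.21, edgeR adjusted p 3.31e-12). Stat2 (-0.74) and Irf9 (-0.24, adjusted p 0.00307), transcription factors that activate interferon-stimulated genes, were also lower, and so was Usp18 (-0.69), an inhibitor of the receptor. The receptor gene Ifnar1 was higher in KO, by 0.18 without LPS (adjusted p 0.00698) and by 0.33 with LPS (adjusted p 9.03e-05).

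With LPS the signalling genes divided, 5 higher and 3 lower in KO at an adjusted p below 0.05, against 7.78% and 6.54% of all tested genes, with a median of -0.05. By edgeR 0 of the 16 were called and 9 had an unadjusted p below 0.05, against 1.25% and 28.5% of all tested genes, while DESeq2 called 1, Ifnb1 (-1.02, DESeq2 adjusted p 0.0311). Stat2 was lower (-0.15, adjusted p 0.0426), while Irf7 (-0.06, adjusted p 0.505) and Irf9 (-0.00, adjusted p 0.97) did not pass. Ifnb1, the gene for interferon beta, was at or under 3 counts without LPS and had 23 to 46 counts with it. It had a mean of 0.0369 CPM in WT UT and 0 in KO UT, and 1.87 ± 0.272 CPM in WT LPS and 0.913 ± 0.073 in KO LPS (SD, n = 3; log2 fold change -1.03, edgeR adjusted p 0.0797). The difference in LPS response passed for 6 of the 16, all larger in KO, with Irf7 called (1.15, adjusted p 1.02e-08), against 7.32% and 0.522% of all tested genes.

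**Figure D5:**
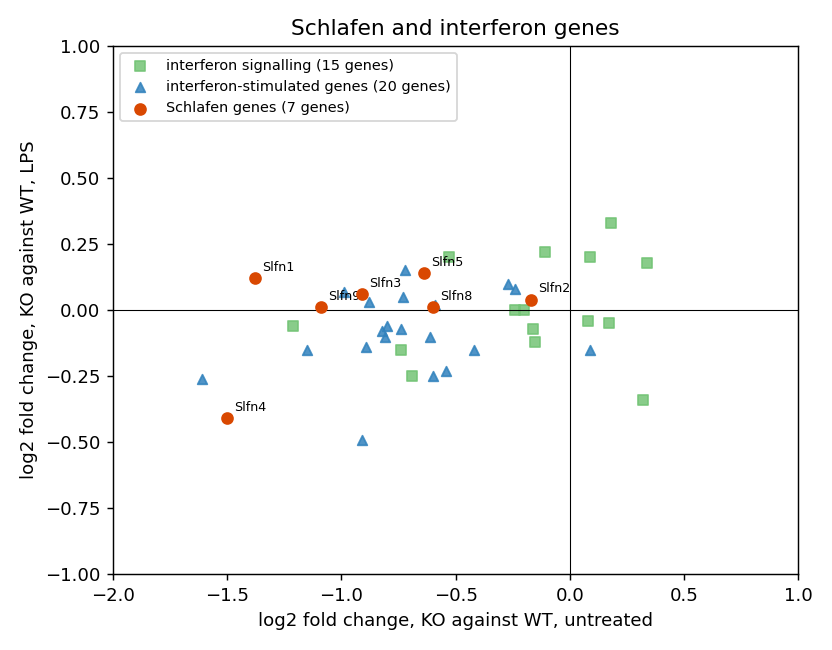
Log2 fold change of KO against WT without LPS (horizontal) and with LPS (vertical) for the 7 Schlafen genes, 20 interferon-stimulated genes and 15 genes of interferon signalling. Ifnb1 is left out, being at or near 0 without LPS. Most points of the Schlafen and interferon-stimulated genes lie left of 0 and near the horizontal line, and Slfn4 lies at -1.50 and -0.41.

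The genes whose levels followed each member most closely were ranked among 9581 tested genes outside the family with a mean of at least 5 CPM, by Pearson correlation of log2 CPM over the 12 libraries. The difference between UT and LPS dominates these values, which have no p. For Slfn4 they were Helz2 (0.9997), Rnf213 (0.9997) and Oasl1 (0.9995), for Slfn8 Eif2ak2 (0.9999), Ddx60 (0.9998) and Ifit1 (0.9997), and for Slfn9 Ifi206 (0.9994), Irgm2 (0.9988) and Oasl2 (0.9987). For Slfn5 they were Ifi209 (0.9995), Gm5431 (0.9994) and Dtx3l (0.9994). Several of these are known interferon-induced genes, among them Eif2ak2, the RNA-sensing kinase PKR. For Slfn1 they were Fgr (0.9988), a myeloid kinase, Ifi209 (0.9976) and Itgal (0.9972), for Slfn2 Gm49342 (0.9998), Vasp (0.9995) and Phf11b (0.9995), and for Slfn3 Itga1 (0.9950), Ptgir (0.9946) and Ifi207 (0.9945).

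After the group means were taken out, the members did not all vary together. Slfn5 and Slfn8 had a residual correlation of 0.932, Slfn5 and Slfn9 of 0.894 and Slfn8 and Slfn9 of 0.826 over the 12 libraries, and Slfn3 had 0.649 with Slfn5, 0.545 with Slfn8 and 0.54 with Slfn9. Slfn4 had 0.483 with Slfn1, 0.468 with Slfn2, -0.09 with Slfn8, -0.378 with Slfn5, -0.446 with Slfn9 and -0.461 with Slfn3. These points share library, depth and base composition, and WT LPS replicate 1 is highest of its group in Slfn3, Slfn5, Slfn8 and Slfn9 and lowest in Slfn4.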

How the data were processed

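The 12 BMDM libraries fall by their labels into 4 groups of 3, by genotype and treatment. Per the labels and the methods, the authors prepared stranded total RNA libraries, aligned the reads to GRCm38 with HISAT2 2.1.0 and built a count matrix with featureCounts 2.0.0. The deposited values are these raw counts per gene, with no normalization. The annotation release and the handling of strand and of reads with several matches are not given in the sources used here.

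Symbols and positions came from GENCODE M21 by identifier without version, which matched 48144 of 48526 genes, and the unmatched 382 held 0.122% of counts. Counts were tested with edgeR 4.0.16 (quasi-likelihood test, TMM scaling, filterByExpr with a minimum count of 10 and a minimum total of 15). The model had a mean for each of the 4 groups and no covariate, and p-values were adjusted by the Benjamini-Hochberg method over all 15523 genes kept, which held 99.96% of counts. The common coefficient of biological variation was estimated at 0.0712. A call needed an adjusted p below 0.05 and a log2 fold change beyond 1 in size. Intervals are 95% intervals of the fit. CPM used TMM library sizes, and log2 CPM for correlations used a prior count of 2. A count of 3 was the detection floor, and counts without molecular identifiers make it a limit of counting error only. The scripts were tested on simulated data with known changes. Promoter windows were RefSeq on GRCm38.p6.

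Members, gene lists and tests were chosen with earlier results of these data known. Named were the 7 members, other Slfn genes, Tnf, from each list up to 4 called genes with the largest change plus Ifnb1, Ifnar1, Stat2, Irf7 and Irf9, called neighbours, and for each member the 3 closest genes. 1 gene that this rule names is not reported here. The neighbours below the call threshold, Isg15 and Mx2 were named after their values were seen.

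Batch and replicate numbers are the same in the labels, so the labels pair libraries across groups. To check the pairing, deviations from group means of same-numbered libraries had correlations from -0.0631 to 0.0373 over 18 pairs, and 0 pairs were above 0.1. Replicates differed by more than counting noise (chi-square per degree of freedom of at least 3.66), so none was counted as a repeat deposit of another, and this check does not tell whether they came from separate mice or cultures. Alternatives were RLE and upper-quartile scaling, protein-coding genes only, DESeq2 1.42.0, no filter, a minimum mean CPM of 1, a fit with replicate block, the compared groups only, no fold change minimum, and each library left out in turn.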

Additional observations from a re-analysis of the deposited data

Results flagged for a closer look

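The LPS response of the Schlafen genes was flagged because the difference between genotypes was itself tested and passed. In KO minus WT it was 1.50 on the log2 scale for Slfn1, 1.10 for Slfn9, 1.08 for Slfn4, 0.97 for Slfn3, 0.78 for Slfn5, 0.60 for Slfn8 and 0.21 for Slfn2, with edgeR adjusted p of at most 0.036. For Slfn2 the difference did not pass in 10 of the alternative settings, among them the replicate block (adjusted p 0.0689). Groups of 3 are too small for a search for single stray libraries.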

How the results depend on the processing

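Of 693 recomputed log2 fold changes of single members, 666 kept their direction and their side of an adjusted p of 0.05, and 14 changed sign, all of them small differences between KO and WT after LPS. In that comparison Slfn2 was -0.00 with protein-coding genes only. Slfn8 was -0.02 with upper-quartile scaling, -0.03 with protein-coding genes only and -0.01 with a minimum mean CPM of 1, and Slfn9 was -0.01, -0.02 and -0.01 under the same settings. With 1 library left out, Slfn3 ranged from -0.02 to 0.16, Slfn8 from -0.04 to 0.07 and Slfn9 from -0.07 to 0.15 (the ends of each range without WT LPS replicate 3 and without WT LPS replicate 1). Slfn5 passed an adjusted p of 0.05 there with no filter (0.16, adjusted p 0.0415) and without WT LPS replicate 1 (0.23, adjusted p 0.00104). Without the fold change minimum, 1 member passed between genotypes after LPS, where 14.3% of tested genes did. Under the same rule 7 passed without LPS, all lower in KO, where 9.69% of tested genes were. For the difference in LPS response 7 passed, all larger in KO, where 7.32% of tested genes were. Of the 11 values that no longer passed, 10 were the response difference of Slfn2, with protein-coding genes only (0.16, adjusted p 0.0882), a mean CPM of at least 1 (0.19, adjusted p 0.0506), the replicate block (0.21, adjusted p 0.0689) and 7 libraries left out, and 1 was Slfn2 without LPS. The count of members called for the response difference was 3 or 4 in every setting that kept the fold change minimum. The replicate block changed no call of a member. The cause of these changes was not tested. Upper-quartile scaling moved the median of all tested genes to -0.136 for LPS in WT and -0.239 in KO (0.0471 and -0.0555 with TMM). All 7 members remained called higher, where 2523 of 15523 tested genes were in WT and 2324 in KO.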

Other observations

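Spread between replicates differed between members. The coefficient of variation over 3 libraries was 13.8% in WT UT and 18.3% in KO UT for Slfn1, the member with the fewest reads without LPS, and 3.97% and 1.24% after LPS. For Slfn9 it was 16.3% in WT LPS and 5.99% in KO LPS, and for Slfn5 11.8% and 4.47%, while Slfn4 stayed at 3.29% and 2.96%.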
